A study of Caenorhabditis elegans with 12 samples.

Results

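Starved first-stage (L1) larvae of Caenorhabditis elegans whose parents had eaten bacteria with an empty RNAi vector were described from 4 sequencing libraries of the 12 in the series. The libraries were chosen by their labels alone. Every animal carried hrde-1(tm1200), a deletion allele of the gene for a nuclear Argonaute protein that acts in inherited RNA silencing. The parents grew for 72 h on the HT115 strain of Escherichia coli with the empty vector. Their embryos were released by bleach and hatched without food, and freezing of the arrested larvae followed about 24 h later. The labels number the libraries as biological replicates 1 to 4 and do not give the number of larvae in each. The libraries were made from polyadenylated RNA with a kit that keeps no strand information, so the reads of overlapping or antisense partners cannot be told apart.

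A larva that hatches without food enters L1 arrest: cell divisions of the postembryonic lineages do not start, growth stops, and the animal lives on stores packed into the egg until it feeds. Insulin-like signalling through the DAF-2 receptor and the transcription factor DAF-16, together with nutrient sensors such as AMP-activated kinase, is known to control this state. The arrested larva already has its embryonic nervous system, body wall muscle, pharynx, gut and epidermis, while its germ line consists of only the primordial germ cells.

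The libraries held 7737184, 9719261, 11264146 and 11490429 reads assigned to genes in replicates 1, 2, 3 and 4. Ribosomal RNA entries, with a pseudogene entry lying between them, took 26.4% to 47.1% of these reads, and 4092736 to 8227216 reads per library remained for all other genes. Of all reads in the files, 17.29% to 28.01% were listed as not aligned. Reads of hrde-1 numbered 19, 51, 21 and 53, which does not by itself check the deletion because the counts cover the whole gene. The gene for the DAF-2 receptor had 467, 742, 384 and 751 reads, and pitr-1, of the PiT family of phosphate transporters, had 1357, 2003, 1730 and 2783. Both genes were targets of RNAi in the other libraries of the series, which were not used here.

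Reads were found for most protein-coding genes. Of 19268 protein-coding entries, 11032 had at least 10 reads in every library, which is 57.3%, and 14323 had at least 1. Another 519 had no read in any of the libraries. Depth limited these counts: 3 reads, the limit that a count of 0 allows, correspond to 0.480, 0.247, 0.316 and 0.222 CPM in replicates 1 to 4, where CPM are reads scaled to a library of 1000000. Among other entries, 185 of 2004 pseudogenes, 34 of 6882 noncoding RNAs, 31 of 141 small nucleolar RNAs and 3 of 15351 piRNA entries had at least 10 reads in every library.

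Levels of different genes were compared as TPM, a transcript-based measure that divides the reads of each gene by its summed exon length and scales each library, without ribosomal RNA, to 1000000. On this scale the most abundant entry was tts-1, a long noncoding RNA that is known to bind ribosomes in long-lived mutants. It stood at 52367, 28416, 52304 and 40817 TPM in replicates 1 to 4, or 43476 ± 11415 (SD, n = 4), and alone made up 4.35% ± 1.14 of the total. Replicates 1 and 3 were nearly level and replicate 2 was the lowest. No protein-coding gene reached tts-1 in any library.

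**Figure D1:**
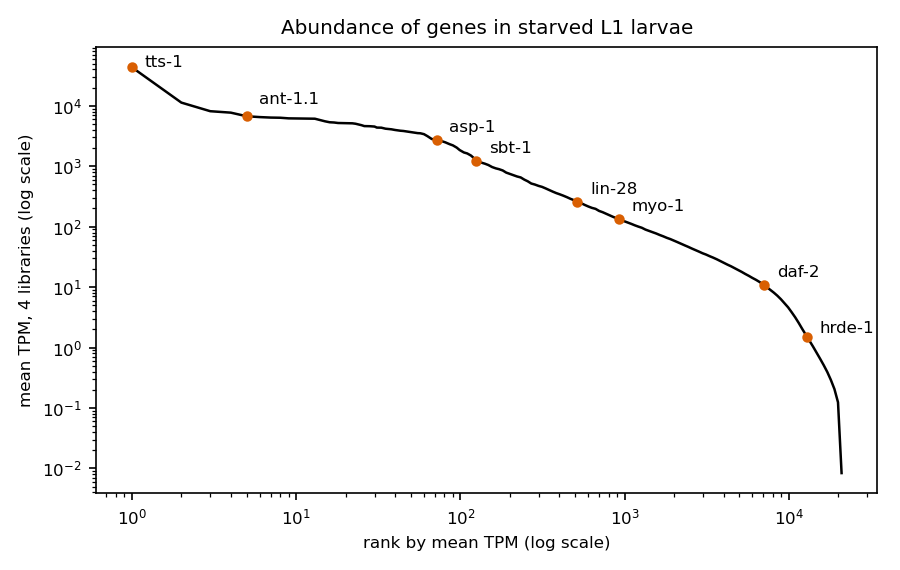
Mean TPM over the 4 libraries (log scale) against the rank of each gene (log scale), ribosomal RNA left out. The curve runs from tts-1 at rank 1 through ant-1.1 at rank 5, asp-1 at rank 72, sbt-1 at rank 125, lin-28 at rank 516, myo-1 at rank 926 and daf-2 at rank 7087 to hrde-1 at rank 12947; labelled points are genes named in the text.

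The transcriptome was concentrated in few genes. The 10 most abundant took 13.4%, 7.88%, 13.1% and 9.26% of all TPM in replicates 1 to 4, and the 100 most abundant took 44.9%, 38.9%, 46.2% and 40.8%, or 42.7% ± 3.42 (SD, n = 4). The 1000 most abundant took 75.6% ± 3.08. Of the 100 genes ranked highest over all libraries, 98 were protein-coding, 63 were rpl or rps genes of cytosolic ribosomal proteins and 5 were genes of the mitochondrial genome. The ranking was largely shared: 87 genes were in the top 100 of each of the 4 libraries taken alone. Below the top, 147 protein-coding genes had a mean of at least 1000 TPM, 1191 at least 100, 7231 at least 10 and 13472 at least 1.

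Most of the 30 highest protein-coding genes encode parts of the ribosome. The highest nuclear gene was rpl-23, of the large subunit, at 8375, 6985, 9519 and 7739 TPM in replicates 1 to 4, with replicate 3 the highest and replicate 2 the lowest. The next ribosomal protein genes were rpl-43 at 7718 ± 1119 TPM, rpl-36 at 6516 ± 1179 and rpl-39 at 6397 ± 1921 (SD, n = 4). The highest small-subunit gene, rps-25, stood at 6356 ± 463 TPM. Also in this group were rla-1, which encodes an acidic protein of the ribosomal stalk, at 5350.4 ± 301 TPM, and Y37E3.8, another large-subunit gene, at 6155 ± 513. A list of 77 of the rpl and rps genes summed to 256262, 257861, 272908 and 265697 TPM, 26.3% of the mean total, with rpl-16 listed at 0. Genes of the rla family, at 10789 ± 397 TPM, and Y37E3.8 were not part of that list.

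The remaining genes among the 30 serve the mitochondrion, muscle and gut. The mitochondrial carrier that exchanges ADP for ATP, ant-1.1, stood at 5743, 8348, 4907 and 7917 TPM, highest in replicate 2 and lowest in replicate 3. Y82E9BR.3, which encodes the membrane ring subunit of the mitochondrial ATP synthase, stood at 4304, 6349, 4268 and 5791 TPM. A regulatory light chain of muscle myosin, mlc-2, stood at 3898, 6400.3, 3697 and 5487 TPM, although reads shared with its near copy mlc-1 could have been split by the counting. These 3 genes were higher in replicates 2 and 4 than in replicates 1 and 3 as TPM. As CPM on library sizes adjusted by the trimmed mean of M-values (TMM), the scale used here to compare libraries, their highest library exceeded the lowest by only 1.19, 1.12 and 1.25 times. Both saposin-like genes in the group, spp-14 at 4576 ± 370.2 TPM and spp-5 at 4542 ± 1019, belong to a family of small proteins that includes pore-forming antimicrobial peptides of the gut.

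**Figure D2:**
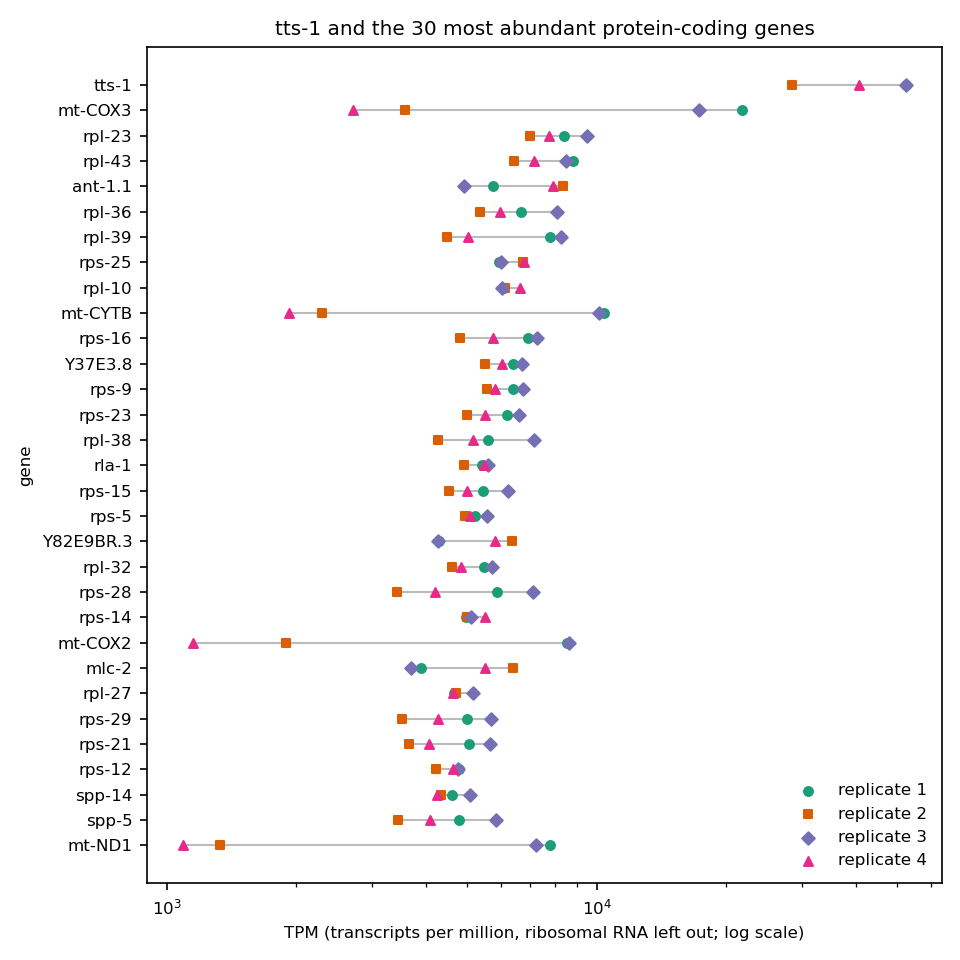
TPM (log scale) of tts-1 and of the 30 protein-coding genes of highest mean TPM, 1 point per library, with a grey line from the lowest to the highest library. The mitochondrial genes mt-COX3, mt-CYTB, mt-COX2 and mt-ND1 have the widest spread, with replicates 2 and 4 low, and rps-25 and rpl-10 are among the genes of narrowest spread.

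Grouped by the letters of their names, the families of highest summed TPM were led by rpl with 143309 ± 4515 TPM over 47 genes and rps with 123306 ± 4322 over 31 (SD, n = 4). Neuropeptide-like nlp genes were next at 15365, 12712, 16112 and 13328 TPM in replicates 1 to 4, with nlp-49 at 1504 ± 188, nlp-80 at 893 ± 112.96 and nlp-55 at 733 ± 173. FMRFamide-like flp genes summed to 12222, 10248, 12936 and 11435 TPM, led by flp-1 at 971 ± 135, flp-9 at 925 ± 144 and flp-24 at 786 ± 89.8. Both classes are named for neuronal signalling peptides, but nlp is a naming class and its sum need not be neuronal throughout. They were the third and the fifth of all families. In both sums replicate 3 was the highest and replicate 2 the lowest.

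Saposin-like spp genes ranked between them at 12144 ± 1856 TPM, of which 37.7% came from spp-14. The aspartic protease family asp, digestive and lysosomal enzymes, summed to 8204, 12165, 7879 and 11826 TPM, led by asp-6 at 4352 ± 1324. Elongation factors eef, which carry aminoacyl-tRNA to the ribosome and move it along the message, summed to 8826 ± 2716 TPM. Of these, eef-1A.1 stood at 2759.8, 6030.4, 2406 and 5244 TPM, higher in replicates 2 and 4 than in 1 and 3, and reads shared with its near copy eef-1A.2 could have been split by the counting. Subunits of the proton pump V-ATPase (vha) summed to 7376 ± 357 TPM, nuclear subunits of cytochrome c oxidase (cox) to 6740.3 ± 306, and transthyretin-related secreted proteins (ttr) to 6077 ± 519. A shared name prefix is a naming class and need not mean shared function: the unc genes, at 4489 ± 1085 TPM over 93 genes, are grouped only by an uncoordinated mutant phenotype.

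Histone genes summed to 5391, 5640.3, 6314 and 5359 TPM, but only 14 of 83 entries had at least 10 reads in every library and 33 had none. The 3 highest were his-37, which encodes histone H4, at 2146 ± 448 TPM, and his-71 and his-72, which encode the replacement histone H3.3, at 787 ± 101 and 627 ± 42.96. Reads of identical histone copies could have been split or lost by the counting. The libraries were also made from polyadenylated RNA, and the part of that selection in the histone counts was not tested.

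Markers of neurons were mostly detected. Of all protein-coding entries, 57.3% had at least 10 reads in every library, the share to set beside the count of each list. The glia, germline, insulin-like and nuclear hormone receptor lists below lie near that share. All 26 pan-neuronal markers had at least 10 reads in every library and summed to 3391, 4299, 2935 and 4173 TPM. In bulk RNA, fewer cells of a type and less RNA per cell cannot be told apart, for this and all lists below. The highest were sbt-1, a chaperone of the neuropeptide-processing protease, at 1227 ± 70.4 TPM, egl-21, the carboxypeptidase that trims neuropeptides, at 726 ± 137, and snb-1, the synaptic vesicle protein synaptobrevin, at 569 ± 81.6. On the TMM-scaled TPM, which sets the libraries on a common scale, the sum differed by 1.05 times between the highest and lowest library.

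Transmitter synthesis and transport genes summed to 367 ± 29.1 TPM with 16 of 17 detected, led by cat-4 at 78.8 ± 19.6, which makes a cofactor of dopamine and serotonin synthesis. The GABA transporter gene snf-11 stood at 62.2 ± 7.28 TPM and unc-25, the GABA-synthesising enzyme, at 56.3 ± 10.14. Touch receptor markers summed to 399.8 ± 45.9 TPM with all 9 detected. The 3 highest act in the special microtubules of these cells: the tubulin acetyltransferase mec-17 at 160.1 ± 28.5, the alpha-tubulin mec-12 at 105 ± 23.1 and the beta-tubulin mec-7 at 89.2 ± 19.9 TPM. Ciliated sensory markers were lower, at 212, 237, 151 and 217 TPM, with 22 of 24 detected and odr-10, the diacetyl receptor, the highest at 62.6 ± 9.14. Glia and sheath markers summed to 63.2 ± 17.1 TPM with 5 of 10 detected, led by vap-1 at 22.4 ± 7.97 and lin-26 at 22.01 ± 10.102.

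**Figure D3:**
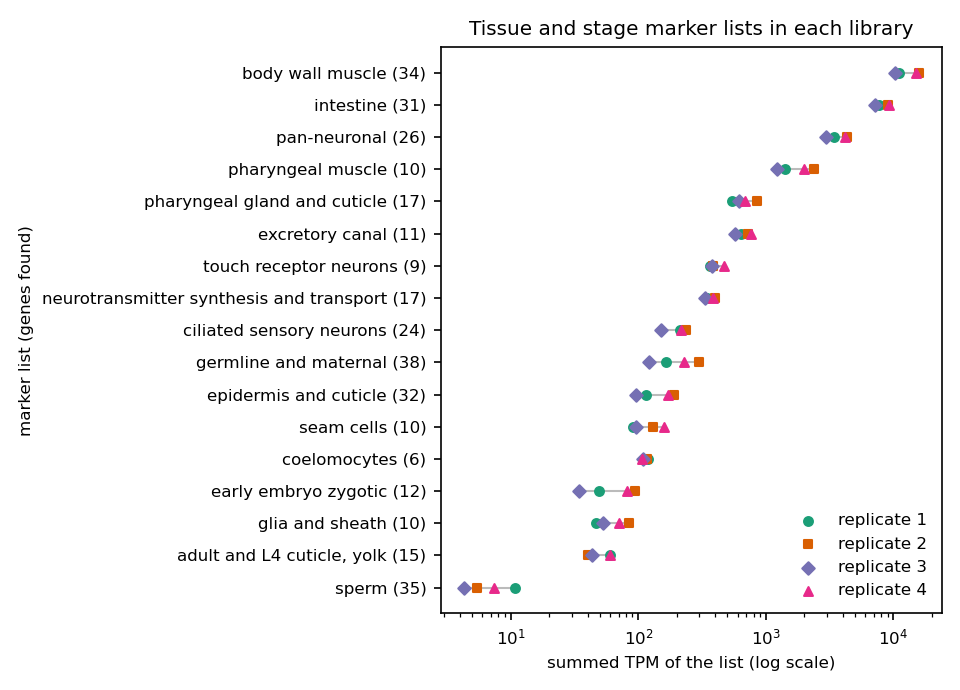
Summed TPM (log scale) of the tissue and stage marker lists, 1 point per library, with a grey line from the lowest to the highest library and the number of genes found in parentheses. The body wall muscle, gut and pan-neuronal lists have the highest sums, which depend on the genes chosen. Sperm markers lie lowest, between 4.28 and 10.8 TPM.

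Body wall muscle gave the highest sum of the tissue lists, with 65.1% of it from 3 genes. The lists differ in size and in the genes chosen, so their sums do not rank the tissues. Body wall muscle markers summed to 11030.0000, 15926, 10358 and 15113 TPM with 32 of 34 detected, led by the myosin light chains mlc-2 and mlc-3 (2396 ± 516 TPM) and by troponin C, pat-10, at 1261 ± 308. On the TMM-scaled TPM the sum differed by 1.12 times among libraries. The gene for the muscle transcription factor MyoD, hlh-1, was listed at 0 in every library. Within pharyngeal muscle, 10 of 10 genes found were detected and summed to 1401, 2385, 1218 and 1999 TPM. The troponin C gene tnc-2 stood at 693, 678, 694 and 676 TPM, nearly level on this scale, and at 414, 309, 461 and 331 CPM, highest in replicate 3. Its partner troponin I gene tni-4 stood at 469, 844, 364 and 626 TPM, highest in replicate 2 and lowest in replicate 3.

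Pharyngeal gland and cuticle markers summed to 673 ± 129 TPM, but 92.7% of this came from 3 genes of gland proteins, phat-6, phat-5 and phat-3. Only 5 of 17 genes of this list were detected, and among the abu genes of the pharyngeal cuticle abu-14 was the one above 10 CPM on average, at 11.2, 29.7, 6.64 and 7.11 CPM. Replicate 2 stood above the other libraries for abu-14.

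Gut markers summed to 7710.4, 9102, 7179.6 and 9229.8 TPM with 29 of 31 detected. The highest were the proteases asp-1 at 2323, 3099, 2173 and 3336 TPM and asp-3 at 1207 ± 257, and fat-6 at 1078 ± 99.5, one of the stearoyl-CoA desaturases that make monounsaturated fatty acids. The sister desaturase fat-7 was listed at 0. Among members of at least 10 CPM, the widest range was that of mtl-2, a metallothionein, at 55.4, 16.6, 59.1 and 25.7 CPM, with replicates 1 and 3 high and replicates 2 and 4 low. The markers mtl-1 and mtl-2 have short messages, of 373 and 347 bases.

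Epidermal and cuticle markers were low. The 32 genes summed to 115.3, 189, 95.6 and 172 TPM and 12 of 32 were detected. The transcription factor genes elt-3 at 38.04 ± 2.90 TPM and nhr-25 at 19.3 ± 3.97 were the highest, while the collagen dpy-17 stood at 5.44, 18.8, 3.69 and 12.8 CPM, high in replicates 2 and 4. Over the whole family of 176 cuticle collagens, 36 of 176 entries were detected and the sum was 1796 ± 539 TPM, with col-42 at 353 ± 121, col-39 at 214 ± 72.3 and col-98 at 166 ± 53.9. Seam cell markers summed to 119.5 ± 32.3 TPM, led by the hedgehog-related genes grd-10 and grd-3. Excretory canal markers summed to 673 ± 83.1 TPM, of which vha-8 gave 343 ± 68.8. Coelomocyte markers, all 6 detected, summed to 112.9 ± 6.05, led by cup-2, a derlin, at 58.7 ± 6.10. A place on one of these lists does not show that a gene is used only in those cells.

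Of germline and maternal markers, the 38 genes found summed to 165, 299, 120.3 and 228 TPM and 24 of 38 were detected, near the 57.3% of all protein-coding entries. The list was led by the RNA-binding proteins car-1 at 62.01 ± 17.6 TPM and cgh-1 at 26.01 ± 6.87, which act in many tissues. Next was mex-3, a maternal RNA-binding protein, at 9.92, 21.4, 6.53 and 15.997 CPM in replicates 1 to 4, highest in replicate 2 and lowest in replicate 3. Few markers of other stages were detected. None of the 35 sperm entries was detected and 19 were listed at 0. Markers of adult and fourth-stage cuticle and of yolk had 2 of 15 detected, grd-5 and the growth factor gene lin-3. Of the early embryonic list only skn-1 was detected, at 54.2 ± 23.3 TPM; this transcription factor is also used in larval gut and neurons.

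Genes of energy metabolism summed to 3719, 4743, 3235 and 4796 TPM with 39 of 44 detected. The glycolytic enzymes aldo-2 at 1012, 1183, 799 and 1216 TPM, gpd-3 at 699 ± 148 and tpi-1 at 223 ± 16.8 led the list, and gpd-2, a near copy of gpd-3, was listed at 0. Only 1 of 35 members of at least 10 CPM ranged 2-fold or more among libraries, against 28.5% of all 7399 genes at that level. That gene was icl-1, the glyoxylate-cycle enzyme that lets the animal build sugar from fat, at 17.3, 56.6, 40.4 and 23.2 CPM, highest in replicate 2 and lowest in replicate 1.

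Autophagy genes summed to 4444, 4542, 4399.8 and 4275 TPM, with the ATG8 homologues lgg-1 and lgg-2 at 2487 ± 271 and 955 ± 57.9 making up most of it. Antioxidant enzymes summed to 2436 ± 63.5 TPM, led by the peroxiredoxin prdx-2 at 1065 ± 42.9. Genes of nutrient sensing and arrest summed to 1713 ± 297 TPM with 39 of 43 detected. Its highest members were lin-28, the RNA-binding protein of early larval timing, at 257, 250.05, 234 and 287 TPM, the insulin-like gene ins-18 at 126 ± 31.04, and the nuclear receptor nhr-49 at 114.8 ± 28.7. The receptor gene daf-2 itself stood at 12.35, 13.2, 6.01 and 11.2 TPM, lowest in replicate 3.

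Among chaperones, hsp-90 stood at 506 ± 172 TPM and the 12 genes found of the HSP70 and HSP90 chaperone list summed to 1226 ± 426. Of the small heat shock proteins, hsp-12.2 was highest at 91.4, 144, 93.8 and 129.8 CPM. The heat-inducible hsp-16.2 was at 15.7, 11.6, 11.1 and 3.78 CPM, lowest in replicate 4, and the hsp-16.48 entries, near-identical copies whose reads the counting could have split, were lowest in replicate 4 as well. DNA replication and cell cycle genes summed to 459.9 ± 60.9 TPM, with 29 of 38 detected. The single-strand binding protein rpa-2 stood at 89.3 ± 8.06 TPM, and the cell cycle inhibitor cki-1, known to hold blast cells in arrest, stood at 88.5 ± 20.8. The origin recognition gene orc-4 was listed at 0. Small RNA pathway genes summed to 251, 491, 220.2 and 432 TPM, led by the helicase rde-12 at 29.8 ± 13.7, and 36 of 40 were detected.

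Large receptor and secreted families differed in how far their leading members carried the sum. The 3 highest members gave 46% of the summed TPM of insulin-like peptides and 45.4% of that of C-type lectins, but 14.3% for chemoreceptors and 8.86% for nuclear hormone receptors. Such a share also depends on the number of detected members, which rose in the same order, at 19, 60, 137 and 174. Insulin-like peptides had 19 of 39 detected and 1537 ± 220.5 TPM, led by ins-17 at 353, 318, 395 and 435 TPM, ins-1 at 169 ± 44.6 and ins-35 at 162 ± 43.1. Nuclear hormone receptors had 174 of 269 detected and 3323 ± 622 TPM, with nhr-49 highest, nhr-18 at 90.98 ± 16.95 and nhr-1 at 88.6 ± 34.6. C-type lectins had 60 of 240 detected and 2727 ± 303 TPM, of which clec-63 gave 728 ± 229.5. Chemoreceptor genes, the largest family, had 137 of 1316 detected and 1916 ± 114.6 TPM in all, led by srr-4 at 111 ± 16.8 and srw-86 at 100.3 ± 47.02.

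The libraries differed from one another by more than counting error. The common biological coefficient of variation, estimated with edgeR over 11539 genes, was 0.304. Over the 7405 genes with a mean of at least 10 CPM it was 0.280. For pairs of libraries over those genes it ran from 0.139 for replicates 2 and 4 to 0.357 for replicates 2 and 3, with 0.202 for replicates 1 and 3. Pearson's r of log2 CPM across genes, which are not independent replicates, was 0.979 for replicates 2 and 4 and 0.880 for replicates 2 and 3. Every pair differed by more than sampling noise, with a chi-square statistic per degree of freedom of at least 8.76, which does not by itself show separate cultures; the 4 were counted as separate samples from their labels.

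Among 7399 genes with a mean of at least 10 CPM, 2112 had a highest library at least 2-fold above the lowest, which is 28.5%. The median range was 1.67-fold, 459 genes reached 3-fold and 53 reached 5-fold. The median coefficient of variation was 22.9%, against 6.16% from counting alone. Without replicate 3, 1175 of 7541 genes ranged 2-fold or more, and without replicate 2, 1331 of 7087; without replicate 1 the count was 1698 and without replicate 4 it was 1746. Replicate 3 was the highest library in 760 of the 2112 genes and the lowest in 713, and replicate 2 was the highest in 707 and the lowest in 655. The highest pair was replicates 2 and 4 in 892 of these genes and replicates 1 and 3 in 868, and another pair was highest in 352.

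The range of a gene went with its length. Genes with under 500 bases of exon ranged 2.29-fold at the median and 64.5% of 465 passed 2-fold, those of 1500 to 2000 bases ranged 1.51-fold with 15.3% of 1278 past it, and those of 5000 bases or more ranged 2.09-fold with 54.9% of 308 past it. The direction differed by library. In the shortest class the median log2 deviation from the gene's mean was 0.26, -0.50, 0.57 and -0.32 in replicates 1 to 4, and in the longest class it was -0.25, 0.42, -0.50 and 0.33. Short genes were thus high in replicates 1 and 3 and long genes high in replicates 2 and 4. Across 7353 genes with a length, Spearman's rho of length with the deviation was -0.37, 0.62, -0.68 and 0.57, given as a description of genes that share these libraries. Its part in the results of single genes was not tested.

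**Figure D4:**
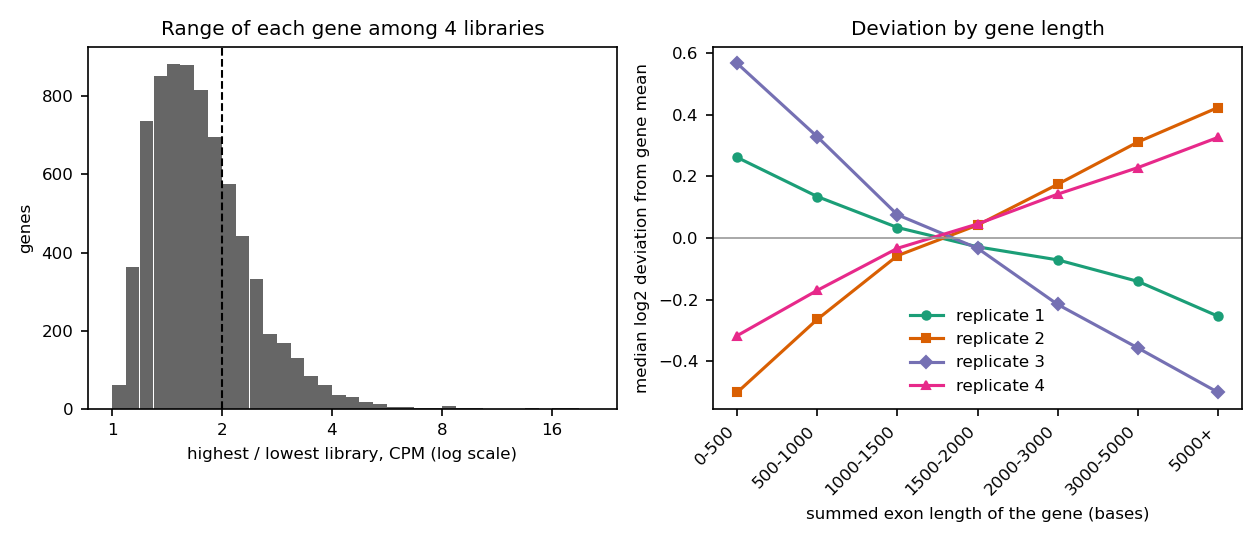
Left, number of genes by the ratio of the highest to the lowest library (CPM on TMM-adjusted sizes, log axis), with a dashed line at 2-fold; 2112 of 7399 genes lie at or beyond it. Right, median log2 deviation of each library from the gene's mean in 7 classes of summed exon length, where replicates 1 and 3 fall and replicates 2 and 4 rise with length.

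Several lists of short genes, and genes with long messages, leaned in the same directions. Neuropeptide-like genes, with a median of 533 exon bases, had 35 of 58 members of at least 10 CPM past 2-fold, and insulin-like peptides, with a median of 468 bases, had 9 of 12. On the TMM-scaled TPM their sums differed by 1.85 and 2.05 times, both highest in replicate 3 and lowest in replicate 2. Ribosomal protein genes, also short, were nearly level as TPM (1.06 times) and differed by 1.55 times on the TMM-scaled TPM. As CPM, 14 of 75 passed 2-fold, a share below the 28.5% over all genes. Pharyngeal muscle markers had 5 of 9 members past 2-fold with a median range of 3.38-fold. The long myosin heavy chain gene myo-1 stood at 234, 869, 159.6 and 816 CPM and myo-2 at 189.6, 616, 136 and 510.1, with replicates 2 and 4 above replicates 1 and 3. Body wall paramyosin, unc-15, stood at 532, 954, 435 and 975 CPM and was also higher in replicates 2 and 4 than in replicates 1 and 3. Small RNA pathway genes had 11 of 21 past 2-fold, and nuclear hormone receptors 10 of 101, below the 28.5% over all genes. Their median exon lengths were 3414 and 1558 bases. Over all genes of 3000 to 5000 and of 1500 to 2000 bases, 36.6% and 15.3% passed 2-fold.

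The largest ranges belonged to genes of the mitochondrial genome. These genes summed to 55834, 10156, 51561 and 7931 TPM, a difference of 7.04 times on this scale and 8.83 times on the TMM-scaled TPM, with replicates 1 and 3 high and replicates 2 and 4 low. The gene mt-ND2, for a subunit of respiratory complex I, stood at 683, 50.7, 924 and 80.8 CPM, a range of 18.2-fold. Subunits mt-ND3 at 261, 25.4, 418 and 28.6 CPM and mt-ND6 at 621, 61.8, 849 and 65.9 CPM ranged 16.5000-fold and 13.7-fold. The most abundant, mt-COX3 of cytochrome c oxidase, stood at 12229.5, 1540.5, 10823 and 1252 CPM. All 8 mitochondrial protein genes with at least 10 CPM ranged 7.14-fold or more, and in each of them replicates 1 and 3 were above replicates 2 and 4. The other 4 were listed at or near 0: mt-ATP6, mt-ND5 and mt-ND4L had no read, and mt-COX1 had 1, 2, 1 and 7. Ribosomal RNA entries were also high in replicates 1 and 3, at 47.1%, 26.4%, 42.2% and 28.4% of gene reads in replicates 1 to 4. Its part in the mitochondrial levels was not tested.

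**Figure D5:**
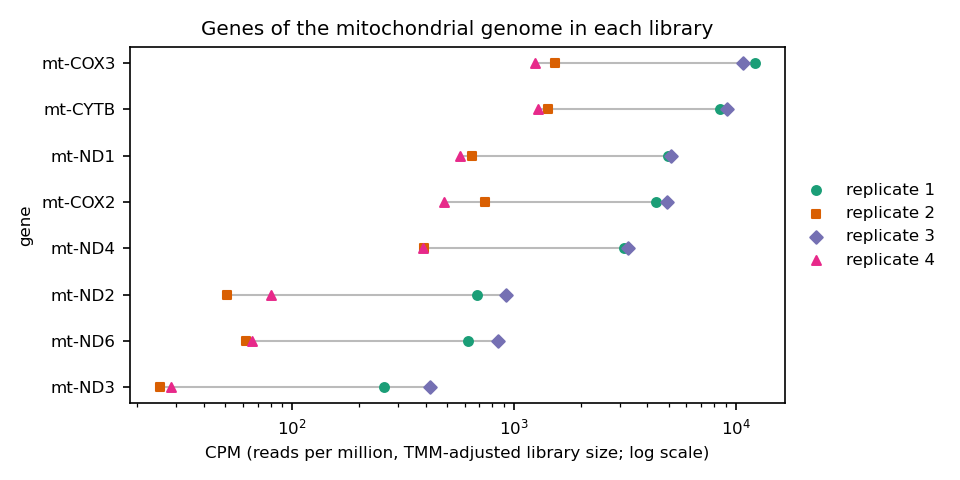
CPM on TMM-adjusted library sizes (log scale) of the 8 mitochondrial protein genes with at least 10 CPM on average, 1 point per library, with a grey line from the lowest to the highest. Replicates 1 and 3 lie above replicates 2 and 4 for every gene, from mt-COX3 at the top to mt-ND3 at the bottom.

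Of the nuclear entries among the 15 of largest range, 6 of 8 were highest in replicates 2 and 4. K09F6.9 stood at 13.6, 34.3, 2.53 and 23.6 CPM and tcer-1, a transcription elongation regulator, at 45.1, 131, 16.02 and 110.2 CPM. The RNA interference gene eri-9 stood at 2.40, 20.6, 6.53 and 19.997 CPM, lowest in replicate 1. A pair of small noncoding entries went the other way, sup-6 at 137, 15.3, 79.1 and 19.2 CPM and the small nucleolar RNA Y75B12B.12 at 27.04, 3.87, 33.1 and 4.96, both high in replicates 1 and 3.

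Genes that stood furthest above the median of the other libraries were partly shared between replicates. Replicate 2 stood furthest above for the pseudogene C01B10.1, at 14.9, 84.2, 11.9 and 46.3 CPM, and for lim-8, abu-14, Y58A7A.3 and K07B1.8, the last of which matched no gene of the annotation used. Replicate 4 stood furthest above for che-10, the rootletin of cilia, at 17.8, 56.3, 18.4 and 68.7 CPM, and for myo-1, lim-8, sdc-2 and C01B10.1. Both lim-8 and C01B10.1 were on the lists of replicates 2 and 4. For replicates 1 and 3 all 5 such genes were mitochondrial, with mt-ND2, mt-ND3, mt-ND4 and mt-ND6 on both lists. The neuropeptide-like gene nlp-34 was low in replicate 4 alone, at 57.1, 39.98, 55.3 and 9.18 CPM.

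The 10 entries of smallest range, picked from 7399, held their level to within a few percent. The pseudogene entry F54D5.16 ranged 1.01-fold and the glycosyltransferase gene ugt-18 ranged 1.02-fold at 28.8, 29.4, 29.4 and 29.4 CPM. The early endosome GTPase gene rab-5 stood at 154, 153, 159.7 and 154 CPM, and cup-5, zyg-11, ent-1, npl-4.1, trip-4, pacs-1 and Y51H4A.24 ranged 1.03-fold to 1.05-fold. At 10 CPM, counting error alone gives a coefficient of variation of 8.61% or more in a single library, so ranges this small lie within it for the lower genes. Of the 7399 genes, 204 had a coefficient of variation below that from counting. A small range picked from so many genes therefore does not show that the gene itself is steady. Their summed exons were 312 to 2872 bases. Among abundant entries, the pseudogene F07H5.5 was steady at 3019.8, 2933, 2814 and 2958 CPM, a range of 1.07-fold.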

How the data were processed

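Each file deposited by the authors lists raw read counts for 44968 gene entries. A further 5 summary entries per file, among them 17.29% to 28.01% of reads not aligned, were kept out of every total. Bowtie 1.2.2, HTSeq and edgeR are named, without roles, in the submitters' processing notes. For the genome build and annotation, "not given in the sources used here" applies, and positions were therefore left out. Only the 4 empty vector libraries were read. Entries were matched by sequence name to the WBcel235 annotation, release 115; 525 matched no gene and 3 matched several. TPM was computed from summed exon lengths over entries of at least 200 bases without ribosomal RNA. CPM used TMM-adjusted library sizes from edgeR 4.0.16 (R 4.3.3). A check on simulated counts gave every gene the same known spread, with no shift by gene length and none of the mitochondrial genes. It therefore does not cover those patterns of the real libraries. A gene counted as detected with at least 10 reads in every library. The design holds 1 group, so there is no test; values are means ± SD (n = 4), which measure the spread between these samples. The labels call them biological replicates without describing the cultures.

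Genes were named by a rule: the 30 protein-coding genes of highest TPM, the 15 largest and 10 smallest ranges, 3 members of each of 15 families, the leading, most variable and unread members of each of 36 lists, the RNAi targets, the 5 genes highest above the others in each library, and noncoding entries among the 50 of most reads. The members and lists were chosen with earlier results of these data known, and some genes stand on more than 1 list.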

Additional observations from a re-analysis of the deposited data

Results flagged for a closer look

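Of 121 values examined library by library, 36 list sums, 15 family sums, 8 library measures and 62 named genes, 5 had 1 library set apart from the other three by the criterion for a group of 4, which sets the gap to the nearest library against the whole range. Chance sets apart about 1 in 20 groups. The share of reads not aligned was 28.01% in replicate 1, against 17.29% to 17.97% in the other libraries. List and family sums were examined as TPM and single genes as CPM, and a flag on one scale need not hold on the other. The V-ATPase family summed to 7907 TPM in replicate 4, against 7135 to 7231 in the others. This sum was not examined on the TMM-scaled TPM. The neuropeptide-like gene nlp-49 stood at 481 CPM in replicate 2, against 630.1 to 659.5 in the others. As TPM it stood at 1440, 1443, 1354 and 1778 in replicates 1 to 4, so replicate 2 was not low on that scale and replicate 4 was the highest. Both rab-5, at 159.7 CPM in replicate 3 against 153 to 154, and ugt-18, at 28.8 CPM in replicate 1 against 29.4 in each other library, were set apart within a narrow range.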

How the results depend on the processing

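The count of protein-coding genes detected, 11032, was 10487 after thinning to the smallest library, 11160 at 1 CPM, 12127 at 5 reads and 14323 at 1 read, and 11083 to 11897 with a library left out. The share of the 100 most abundant genes, 42.7%, was 53.2% with ribosomal RNA kept and 30.2% without division by length; other settings gave 41.6% to 44.3%, including the pseudogene entry kept and short entries kept, both chosen after seeing the data, and leaving out a library gave 41.62% to 44.02%. The biological coefficient of variation, 0.304, was 0.374 without TMM, 0.415 without a filter and 0.280 for genes of at least 10 CPM, and 0.279 to 0.326 with a library left out. The 2112 genes with a 2-fold range became 3367 without TMM, 6409 at a mean of 1 CPM and 451 at 50 CPM, and 1175 to 1746 with a library left out; fewer libraries can only narrow a range. DESeq2 factors, upper quartile and non-ribosomal totals gave 2117 to 2224, and 2104 remained without mitochondrial genes, an alternative chosen after seeing the data. On the TMM-scaled TPM the library of the highest sum was unchanged for 21 of the 36 lists. Mean sums stayed within 1 SD there, but this scaling can hardly move a mean, because its factors average 1 over the libraries. Undivided by length, 6 lists stayed within 1 SD. Leaving out 1 of 4 libraries cannot move a mean by 1 SD. Neither that nor the TMM scaling says anything of the stability of the mean sums. No paired analysis was possible because the design holds a single group. Depth limits genes below 10 CPM, where counting error exceeds 8.61% in every library.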

Other observations

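Entries at 0 in all libraries included a ribosomal protein gene and a DNA replication gene. The ribosomal protein gene rpl-16 and the origin recognition gene orc-4 had no read, while 75 of the 77 listed rpl and rps genes had at least 10 reads in every library. The muscle factor hlh-1, the desaturase fat-7, the glycolytic gpd-2 and the neuropeptide-like nlp-23 were likewise at 0. In the annotation used, rpl-16, fat-7, orc-4 and nlp-23 shared none of their exon bases with another gene, and hlh-1 kept 94.3% to itself. Of the 519 protein-coding entries at 0, 435 had at least 95% of their exon bases to themselves, and their median exon length was 519 bases, against 1450 for the 11032 detected genes. A value of 0 in these files is therefore given only as listed, and its cause was not tested.

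Ribosomal RNA made up a large share of libraries described as polyadenylated RNA. The entry rrn-3.1 alone held 1753191, 1284476, 2176467 and 1606478 reads in replicates 1 to 4. Both entries of rrn-1.1 had similar counts, 871820 and 769183 in replicate 1; the 2 entries are repeated copies. In the mitochondrial genome, the small ribosomal RNA entry MTCE.7 held 17536, 13238, 25244 and 16612 reads.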
